A study of Mus musculus with 9 samples.

Results

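A set of 9 genes of the T cell receptor complex and its signalling was examined in sorted mouse bone marrow cells. They were chosen by name, as Cd247, Cd3d, Cd3e, Cd3g, Cd28, Cd2, Lck, Zap70 and Lat. Each was read from the probe set with that single gene symbol, taking the one with the highest mean over 9 arrays where a gene had several. Of the 9 listed genes 8 had such a probe set, exactly 1 each, out of 17731 genes measured. Lck, the Src family kinase that starts the receptor signal, had none in the table used here and was dropped. The mean level was the only measured value that chose a probe set.

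Per the labels, all cells came from bone marrow of C57BL6 mice immortalised with the homeobox gene HoxA9. They were transduced with a pSF91 retrovirus, transplanted into irradiated syngeneic mice, and sorted as GFP-positive cells from the marrow 4 weeks later. CTL cells carried the vector with EGFP alone, IDH1wt cells the same vector type with wild-type IDH1, and IDH1mut cells the one with mutant IDH1, each ahead of an IRES and the fluorescent protein. The IDH1 enzyme is a cytosolic isocitrate dehydrogenase that, in the mutant forms found in cancer, produces 2-hydroxyglutarate. There were 3 arrays per group, and nothing in the labels says that they came from separate mice or transductions, so p-values measure the spread between these samples, which may be technical. The labels give no age for the mice, and vector integration sites were not analysed here.

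The T cell receptor recognises peptide on MHC molecules but has no signalling tail of its own. It is carried by the CD3 gamma, delta and epsilon chains and a dimer of CD247, the zeta chain, whose tyrosine motifs (ITAMs) are phosphorylated by LCK. ZAP70 docks on these motifs and phosphorylates LAT, a membrane adaptor on which the branches to calcium, Ras and NF-kB assemble. CD28 is the costimulatory receptor for CD80 and CD86, and CD2 is an adhesion receptor that binds CD48 in mice. Mature T cells hold the whole set, while some of its parts also occur elsewhere in blood: CD247 in NK cells, LAT in mast cells and platelets.

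In IDH1mut against CTL, 5 of the 8 members changed: Cd247, Cd3g, Cd3d and Lat rose, by 1.53-fold to 1.91-fold, and Cd28 fell 1.93-fold. In IDH1mut against IDH1wt, Cd247, Cd3g and Cd3d rose by 1.83-fold to 2.47-fold and Cd28 fell 2.55-fold. No member passed in IDH1wt against CTL. The changes came from one model, limma with a mean per group on all 9 arrays, with Benjamini-Hochberg adjustment over all 17731 genes and a threshold of 0.05. "Rose", "fell" and "changed" are used for genes past it. Values are log2 expression per probe set as deposited, fold changes are differences of group means ± the moderated standard error (SE), and group means are given ± SD (n = 3). Both IDH1 groups were set against the same CTL arrays. RMA compresses differences at low signal, and no detection call exists. Signal is therefore described only against the median of the 17731 genes on each array, called the array median. The median of all probe sets on each array, between 4.65 and 4.72, is another value and was not used for this.

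Over all genes 20.7% passed in IDH1mut against CTL (10.1% higher and 10.6% lower), 2.33% in IDH1wt against CTL and 13.3% in IDH1mut against IDH1wt (6.54% higher and 6.78% lower). Arrays of the compared groups did not overlap for 37.8%, 23.6% and 29.5% of genes in the same order, against 5, 4 and 6 of the 8 members. The members' median log2 fold change was 0.53, -0.21 and 0.41, where the median over all genes was -0.04, -0.04 and 0.00. The members were chosen with results of these data known, so these counts are a description of the 8 genes. Array correlations within groups ran from 0.992 to 0.997, and no pair of arrays held identical values.

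**Figure D1:**
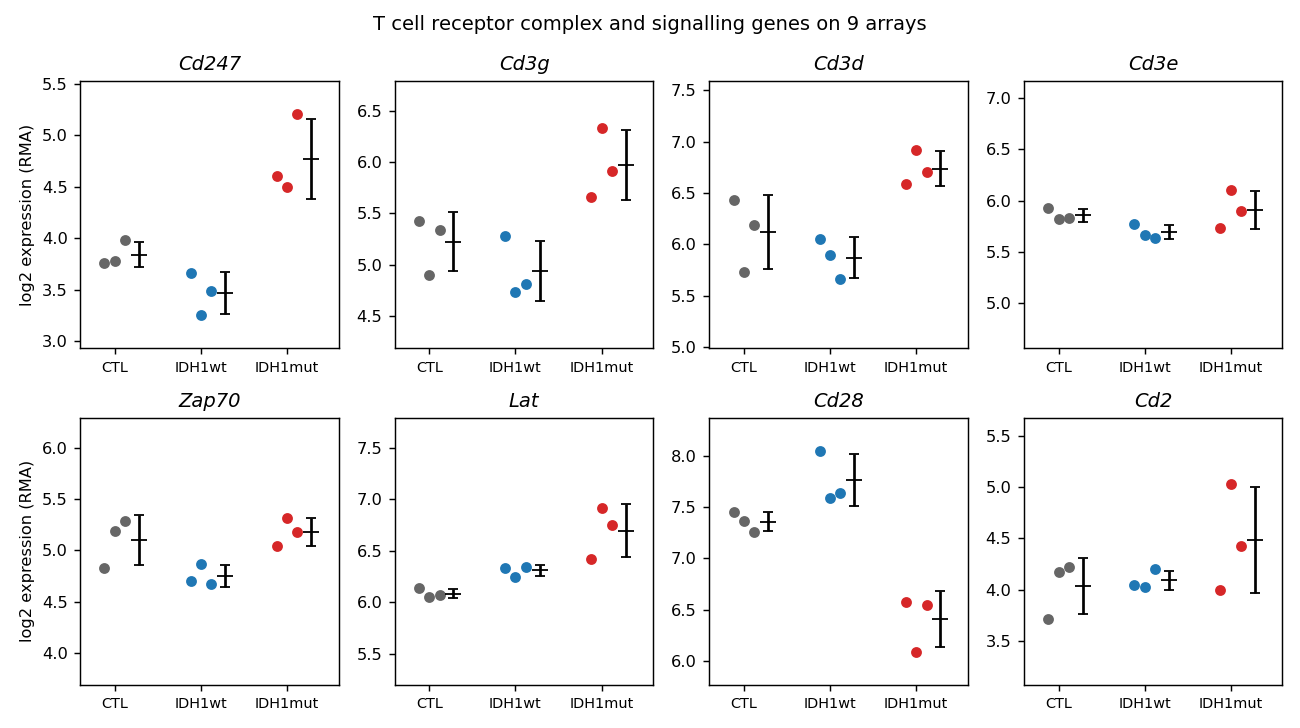
Log2 expression (RMA) of the 8 measured members on the 9 arrays, one point per array (replicates 1 to 3 from left to right), with the group mean ± SD beside them. Every panel spans the same number of log2 units, centred on its gene. IDH1mut arrays lie above all others for Cd247, Cd3g, Cd3d and Lat and below all others for Cd28.

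The genes for the CD3 chains lie next to each other on mouse chromosome 9. The annotated starts of Cd3g and Cd3d point away from each other, 1355 bases apart, and the start of Cd3e lies 27825 bases from that of Cd3d. The 250 bases before each start are shown because Cd3g and Cd3d rose in IDH1mut and Cd3e did not pass. Those of Cd247, the member of largest rise, are shown beside them, all from RefSeq on GRCm38.p6. Windows are chr9:44980432-44980681 on the minus strand, chr9:44981536-44981785 on the plus strand, chr9:45009612-45009861 on the minus strand and chr1:165788431-165788680 on the plus strand, each written 5′ to 3′ along its gene. Capitals mark matches, on either strand, to CAGNTG (the E protein box) or AGGAAG (an ETS motif).
Cd3g: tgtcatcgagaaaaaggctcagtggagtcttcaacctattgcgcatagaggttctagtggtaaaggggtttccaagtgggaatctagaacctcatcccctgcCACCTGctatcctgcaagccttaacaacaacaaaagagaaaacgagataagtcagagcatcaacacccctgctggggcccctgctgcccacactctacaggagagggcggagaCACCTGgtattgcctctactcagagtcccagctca
Cd3d: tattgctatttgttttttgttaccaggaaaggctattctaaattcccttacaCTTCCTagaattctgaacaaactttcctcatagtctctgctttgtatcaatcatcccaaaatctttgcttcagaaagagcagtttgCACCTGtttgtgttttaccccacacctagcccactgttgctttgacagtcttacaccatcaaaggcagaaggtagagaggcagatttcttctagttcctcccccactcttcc
Cd3e: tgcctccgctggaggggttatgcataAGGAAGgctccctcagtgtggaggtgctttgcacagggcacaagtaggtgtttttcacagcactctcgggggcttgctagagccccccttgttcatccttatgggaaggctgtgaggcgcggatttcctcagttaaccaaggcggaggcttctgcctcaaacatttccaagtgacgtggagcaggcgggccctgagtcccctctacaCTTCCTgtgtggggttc
Cd247: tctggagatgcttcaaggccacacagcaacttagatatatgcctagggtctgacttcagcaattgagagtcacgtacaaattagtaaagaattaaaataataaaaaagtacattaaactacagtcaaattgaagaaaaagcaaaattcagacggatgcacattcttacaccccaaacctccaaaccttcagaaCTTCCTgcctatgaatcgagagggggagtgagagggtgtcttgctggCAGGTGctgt

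The E protein box had 2 matches before Cd3g, 1 before Cd3d, 1 before Cd247 and 0 before Cd3e. The ETS letters had 0, 1, 1 and 2 in the same order of genes. No match overlapped another in these windows. Of 32851 annotated promoter windows of this length, 44.8% held the E protein box and 29.5% the ETS letters, so either match is common. TGTGGT (RUNX, in 14% of windows), TATAAA (12.4%) and TGANTCA (AP-1, 6.75%) had no match in any of these 4 windows. The share of G and C was 51.6% before Cd3g, 41.2% before Cd3d, 57.2% before Cd3e and 41.2% before Cd247, beside a median of 52.4% over all windows. Promoter entries existed for 7 of the 9 listed genes. Lat, the other member that rose, had 1 match to the E protein box and 1 to the ETS letters. Zap70, which passed in no comparison, had 2, 0 and 1 matches to the E protein box in its annotated windows. The ETS letters had 1, 2 and 0 there, so neither motif was particular to members that rose.

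Cd247 encodes the zeta chain, which carries most of the tyrosine motifs of the complex. It read 3.76, 3.78 and 3.98 on the CTL arrays, 3.66, 3.25 and 3.49 on the IDH1wt arrays and 4.61, 4.50 and 5.21 on the IDH1mut arrays. All IDH1mut arrays lay above all others, and only IDH1mut replicate 3 was above its array's median signal. Group means were 3.84 ± 0.12 in CTL, 3.47 ± 0.21 in IDH1wt and 4.77 ± 0.39 in IDH1mut. Cd247 rose 1.91-fold in IDH1mut against CTL (log2 fold change 0.93 ± 0.18, adjusted p = 0.00343, limma) and 2.47-fold against IDH1wt (1.31 ± 0.18, adjusted p = 0.001). These log2 fold changes stood at percentiles 97.9 and 99.7 of all genes, and both rises passed without any single array (adjusted p up to 0.0165). Between IDH1wt and CTL the difference was -0.37 ± 0.18 (adjusted p = 0.309), with all IDH1wt arrays below all CTL arrays. Cells of another type in the sort and RNA per cell cannot be told apart in such bulk samples, here and for all members.

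Cd3g encodes the gamma chain. The CTL arrays gave 5.43, 4.90 and 5.34, the IDH1wt arrays 5.28, 4.73 and 4.81, and the IDH1mut arrays 5.66, 6.33 and 5.91. CTL and IDH1wt arrays were interleaved and all IDH1mut arrays lay above them. It rose 1.67-fold in IDH1mut against CTL (0.74 ± 0.20, adjusted p = 0.0219) and 2.04-fold against IDH1wt (1.03 ± 0.20, adjusted p = 0.00701), and did not pass in IDH1wt against CTL (-0.28 ± 0.20, adjusted p = 0.514). The call against CTL was lost without CTL replicate 2, IDH1mut replicate 2 or IDH1mut replicate 3 (largest adjusted p = 0.0837).

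Cd3d encodes the delta chain, which pairs with epsilon as gamma does. It read 6.43, 5.73 and 6.19 on CTL arrays, 6.05, 5.90 and 5.66 on IDH1wt arrays and 6.59, 6.92 and 6.70 on IDH1mut arrays, above the array median throughout. The lowest IDH1mut array was close to the highest CTL array, CTL replicate 1. Cd3d rose 1.54-fold in IDH1mut against CTL (0.62 ± 0.17, adjusted p = 0.0251) and 1.83-fold against IDH1wt (0.87 ± 0.17, adjusted p = 0.00762). IDH1wt stood at -0.25 ± 0.17 relative to CTL (adjusted p = 0.507). Leaving out CTL replicate 2, CTL replicate 3, IDH1mut replicate 2 or IDH1mut replicate 3 ended the call against CTL (adjusted p up to 0.0891). For Cd3g and Cd3d alike, the rise over IDH1wt passed without any single array and missed in an unmoderated test (adjusted p = 0.059 and 0.0564). The rise over CTL missed in the unmoderated test too (adjusted p = 0.104 and 0.103).

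Cd3e encodes the epsilon chain, which the complex needs in 2 copies. It spanned only 0.452 log2 units over the 9 arrays, from 5.64 to 6.10, with means of 5.86 ± 0.06 in CTL, 5.69 ± 0.07 in IDH1wt and 5.91 ± 0.19 in IDH1mut. The IDH1mut arrays (5.73, 6.10 and 5.90) overlapped both other groups, and the IDH1wt arrays (5.77, 5.67 and 5.64) lay below the CTL arrays (5.93, 5.82 and 5.83). None of its contrasts passed: 0.05 ± 0.11 in IDH1mut against CTL (adjusted p = 0.806), 0.22 ± 0.11 against IDH1wt (adjusted p = 0.226) and, with IDH1wt set against CTL, -0.17 ± 0.11 (adjusted p = 0.473).

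After subtracting group means, Pearson's r over the 9 arrays was 0.849 between Cd3d and Cd3g, 0.856 between Cd3e and Cd3g and 0.674 between Cd3d and Cd3e, as a description of arrays that share normalisation and, in part, a group. Before subtraction the values were 0.962, 0.818 and 0.754. After group means were removed, Lat gave values as high, 0.917 with Cd3e and 0.715 with Cd3g, and Cd2 gave 0.748 with Lat and 0.616 with Cd3e. Cd247 gave 0.114 with Cd3g and -0.02 with Cd3d. Array IDH1mut replicate 2 was highest of all 9 for Cd3d, Cd3e, Cd3g, Cd2, Lat and Zap70 and lowest for Cd28, so within-group covariation and this array's extremes were not particular to the CD3 genes.

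**Figure D2:**
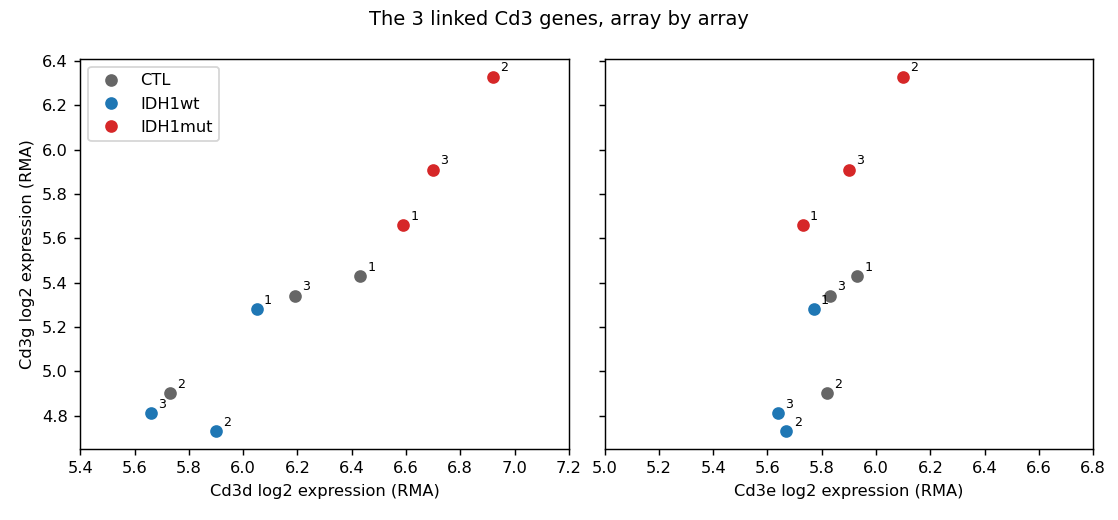
Log2 expression of Cd3g against Cd3d (left) and Cd3e (right) on each array, numbered by replicate and coloured by group. Both horizontal axes span the same number of log2 units. Cd3g and Cd3d spread along one line with the IDH1mut arrays at its upper end, while Cd3e stays within 0.452 log2 units.

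The neighbours of the CD3 genes were read in the same fit, chosen by position as the 5 protein-coding genes on each side. Of 10 neighbours 9 were measured, and 2 rose in IDH1mut against CTL, a share near the 20.7% of all genes that changed. Ube4a, a ubiquitin chain factor next to Cd3g, rose 0.64 ± 0.10 on the log2 scale (adjusted p = 0.00144), from a mean of 6.44 to 7.07. Mpzl3, a myelin zero-like membrane protein beyond Cd3e, rose 1.17 ± 0.26 (adjusted p = 0.00791), from 3.38 to 4.55. Both also rose against IDH1wt (0.49 ± 0.10 and 0.96 ± 0.26, adjusted p = 0.00989 and 0.0305). Cd3e and Mpzl2, which lie between Cd3d and Mpzl3, did not pass (Mpzl2 at 0.17 ± 0.17, adjusted p = 0.538), and neither did the histone methyltransferase gene Kmt2a (-0.03 ± 0.09, adjusted p = 0.842).

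**Figure D3:**
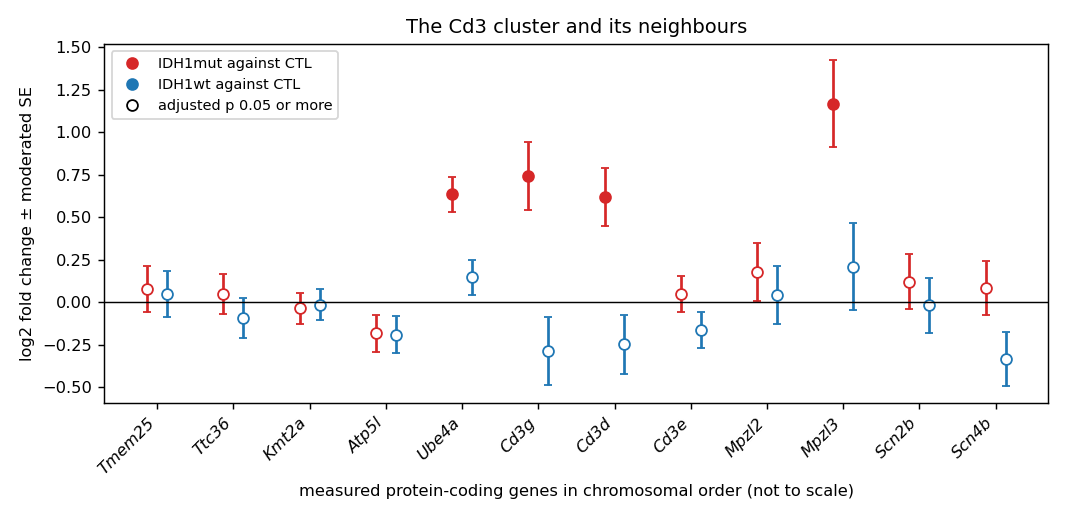
Log2 fold change ± moderated SE of the measured genes around the Cd3 cluster, in chromosomal order and evenly spaced, for IDH1mut and IDH1wt against the same CTL arrays. Filled points have an adjusted p under 0.05. Ube4a, Cd3g, Cd3d and Mpzl3 are filled in IDH1mut against CTL, with unfilled Cd3e and Mpzl2 between Cd3d and Mpzl3.

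Zap70, the kinase that binds phosphorylated CD3 and zeta chains, did not pass in any comparison. CTL arrays read 4.83, 5.19 and 5.29, IDH1wt arrays 4.70, 4.87 and 4.67, and IDH1mut arrays 5.04, 5.32 and 5.18. IDH1mut and CTL overlapped, and all IDH1mut arrays were above all IDH1wt arrays. The log2 fold change was 0.08 ± 0.13 in IDH1mut against CTL (adjusted p = 0.743), 0.43 ± 0.13 against IDH1wt (adjusted p = 0.0505) and, with IDH1wt set against CTL, -0.35 ± 0.13 (adjusted p = 0.201). The middle value passed in 4 of 9 other settings (adjusted p from 0.0252 to 0.124 over the 9) and without CTL replicate 1 (adjusted p = 0.0308). The suffix of its probe set name marks probes that may match other transcripts, so this level may not be of Zap70 alone.

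Lat, the adaptor that ZAP70 phosphorylates, was lowest in CTL (6.14, 6.05 and 6.07), then IDH1wt (6.33, 6.25 and 6.34), then IDH1mut (6.42, 6.92 and 6.75). No array of one group overlapped another group. Lat rose 1.53-fold in IDH1mut against CTL (0.61 ± 0.12, adjusted p = 0.00445), a call that held without any single array (adjusted p up to 0.02). Neighbours in this order did not pass: IDH1wt stood 0.23 ± 0.12 above CTL (adjusted p = 0.376) and IDH1mut 0.39 ± 0.12 above IDH1wt (adjusted p = 0.0572). The latter passed without IDH1mut replicate 1 (adjusted p = 0.0088) and in 4 of 9 other settings.

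Cd28, the costimulatory receptor, was the member that fell. It read 7.45, 7.36 and 7.26 on CTL arrays, 8.05, 7.59 and 7.64 on IDH1wt arrays and 6.58, 6.09 and 6.55 on IDH1mut arrays, above the array medians on all 9. The 3 groups did not overlap, with IDH1wt highest and IDH1mut lowest. Means were 7.36 ± 0.10, 7.76 ± 0.25 and 6.41 ± 0.28 in CTL, IDH1wt and IDH1mut. Cd28 fell 1.93-fold in IDH1mut against CTL (-0.95 ± 0.15, adjusted p = 0.00153) and 2.55-fold against IDH1wt (-1.35 ± 0.15, adjusted p = 0.000389), at percentiles 0.818 and 0.192 of all log2 fold changes. It did not pass in IDH1wt against CTL (0.40 ± 0.15, adjusted p = 0.221). Both falls passed without any single array and in all 9 other settings, at adjusted p up to 0.0208.

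Cd2, the adhesion receptor, spread most within IDH1mut, at 4.004, 5.03 and 4.43, against 3.72, 4.17 and 4.22 in CTL and 4.05, 4.03 and 4.20 in IDH1wt. IDH1mut replicate 1 lay within the range of the other groups and replicate 2 alone was above the array median. The difference was 0.45 ± 0.22 in IDH1mut against CTL (adjusted p = 0.182), 0.39 ± 0.22 against IDH1wt (adjusted p = 0.285) and, with IDH1wt set against CTL, 0.06 ± 0.22 (adjusted p = 0.925). Without IDH1mut replicate 1 the first of these passed, at 0.69 (adjusted p = 0.0296).

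In IDH1wt against CTL 0 of 8 members passed with limma or with an unmoderated test, and 2 had an unadjusted p under 0.05, Zap70 (0.0197) and Cd28 (0.0243). Of the 8 log2 fold changes 3 were positive (Cd28, Lat and Cd2) and the other 5 negative.

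**Figure D4:**
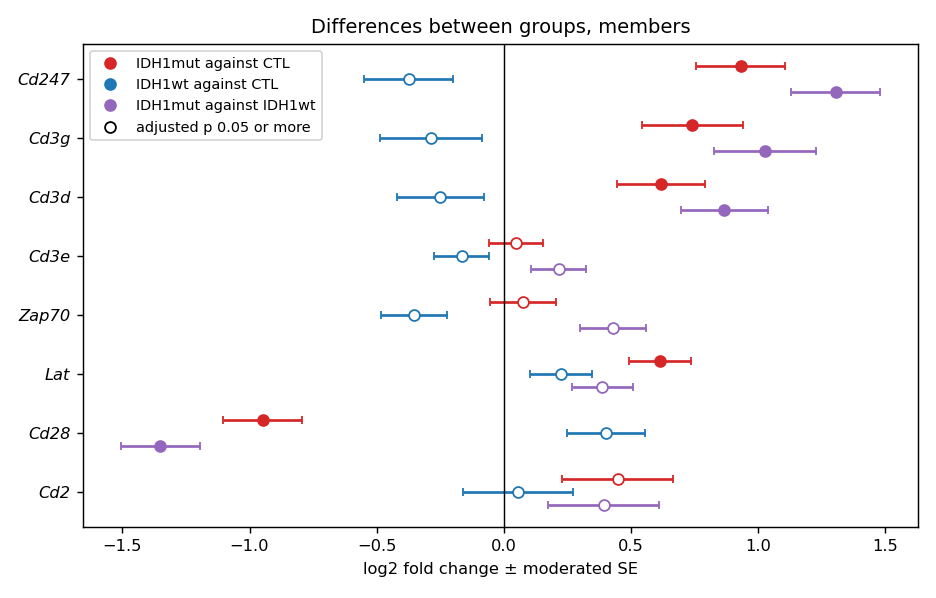
Log2 fold change ± moderated SE of each member in the 3 comparisons, filled where the adjusted p is under 0.05. IDH1mut against IDH1wt gives the largest positive values for Cd247, Cd3g and Cd3d and the most negative for Cd28. No IDH1wt against CTL point is filled.

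Other genes of the pathway were taken from 6 lists and were described by counts. Among kinases, phosphatases and adaptors near the receptor, 34 of 35 were measured. In IDH1mut against CTL 7 rose and 3 fell, 29.4% beside 20.7% of all genes (median 0.05). Sla, the Src-like adaptor that dampens receptor signalling, rose 1.41 ± 0.19, from 6.66 ± 0.18 to 8.06 ± 0.30. Pag1, which recruits the LCK inhibitor CSK, rose 0.74 ± 0.10, and Fyb, an adaptor for integrin activation, 0.73 ± 0.09. Nck1, an adaptor to the actin skeleton, rose 0.61 ± 0.10 (adjusted p of the 4 from 0.000329 to 0.00159). Sla alone passed in IDH1wt against CTL (0.91 ± 0.19, adjusted p = 0.0322). That call was lost without any 1 of the 3 CTL arrays, IDH1wt replicate 2 or IDH1wt replicate 3 (adjusted p from 0.0661 to 0.101). In IDH1mut against IDH1wt 4 rose and 2 fell, 17.6% beside 13.3% of all genes. Pag1 (0.70 ± 0.10), Nck1 (0.71 ± 0.10) and Fyb (0.42 ± 0.09) were among the former and Tespa1, a thymocyte adaptor, among the latter (-0.62 ± 0.15, adjusted p = 0.0212). The call of Tespa1 was lost without IDH1wt replicate 1 or 3 or IDH1mut replicate 1 or 2 (adjusted p from 0.0574 to 0.069), and the list's 6 calls there were 3 without IDH1wt replicate 3 or IDH1mut replicate 1.

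Of 25 genes downstream of LAT 20 were measured. In IDH1mut against CTL 5 rose and 3 fell, 40% beside 20.7% of all genes (median 0.02). Bcl10 and Malt1, partners in the complex that activates NF-kB, rose 0.59 ± 0.12 and 0.45 ± 0.09 (adjusted p = 0.00514 and 0.00508). Prkcq, protein kinase C theta, rose 0.49 ± 0.11 (adjusted p = 0.00911), and Itpr2, an inositol trisphosphate receptor, 0.54 ± 0.15 (adjusted p = 0.0222). The call of Itpr2 was lost without CTL replicate 1 or 3 or IDH1mut replicate 1 or 2 (adjusted p from 0.0524 to 0.0903), and the list's 8 calls were 5 without CTL replicate 1 and 4 without CTL replicate 3. Malt1 alone passed in IDH1wt against CTL (0.54 ± 0.09, adjusted p = 0.0124, and 0.0544 without CTL replicate 1). In IDH1mut against IDH1wt 2 rose and 1 fell, 15% and near the 13.3% of all genes. Bcl10 rose 0.71 ± 0.12 and Dgka, the kinase that removes diacylglycerol, 0.59 ± 0.09, while Pik3r1, a regulatory subunit of PI3 kinase, fell (-0.51 ± 0.09).

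Ligands and partners of CD28 and CD2 had 14 of 15 genes measured. In IDH1mut against CTL 5 rose and 2 fell, 50% beside 20.7% of all genes (median 0.11). Cd80 and Cd86, the ligands of CD28, rose in this comparison, in which Cd28 fell. Cd80 went from 5.49 ± 0.18 in CTL and 5.82 ± 0.10 in IDH1wt to 6.50 ± 0.14 in IDH1mut, a 2.02-fold rise over CTL (1.01 ± 0.12, adjusted p = 0.000201). Cd86 rose 0.74 ± 0.18 (adjusted p = 0.0148, and 0.0505 and 0.0503 without CTL replicate 1 and 3). Cd48, the ligand of CD2, named here after its values were seen, fell (-0.61 ± 0.11, adjusted p = 0.00335), from 10.91 to 10.30. Of the SLAM family, relatives of CD2 and CD48, Slamf1 rose 0.98 ± 0.18 and Ly9 fell by 1.05 ± 0.15 on the log2 scale. Slamf1 was above the array median on 3 of the 9 arrays. In IDH1mut against IDH1wt 3 rose and 3 fell, 42.9% beside 13.3% of all genes. Slamf1 was at 1.00 ± 0.18, Cd80 at 0.68 ± 0.12 and Ly9 at -0.91 ± 0.15. Cd86 did not pass there (0.13 ± 0.18, adjusted p = 0.728), although Cd28 fell. Cd2ap, an adaptor named for binding CD2, was the gene of this list that rose in IDH1wt against CTL (0.66 ± 0.13, adjusted p = 0.0212). This call was lost without CTL replicate 1 or 2 or IDH1wt replicate 1 or 3 (adjusted p from 0.0501 to 0.107). Cd2ap fell in IDH1mut against IDH1wt (-0.84 ± 0.13, adjusted p = 0.00192).

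Relatives of the members with the same kind of role had 12 of 14 genes measured. Of these 2 rose and 1 fell in IDH1mut against CTL, 25% and near the 20.7% of all genes. Tyrobp, the DAP12 adaptor, which like CD247 carries an ITAM, rose 0.39 ± 0.09 (adjusted p = 0.00887). Fgr, a myeloid Src family kinase related to LCK, rose 0.80 ± 0.11 (adjusted p = 0.000716). Lat2, the LAT-like adaptor of myeloid and B cells, fell (-0.86 ± 0.13, adjusted p = 0.00102), from 8.49 ± 0.09 to 7.63 ± 0.18, opposite to Lat. Syk, the relative of Zap70, did not pass there (0.11, adjusted p = 0.664), and rose against IDH1wt (0.56 ± 0.14, adjusted p = 0.027). Its call was lost without IDH1wt replicate 3, IDH1mut replicate 2 or IDH1mut replicate 3 (adjusted p from 0.0689 to 0.0885). In that comparison 3 of these genes rose and 1 fell, 33.3% beside 13.3% of all genes. The 4 calls were 2 without IDH1wt replicate 3 and 1 without IDH1mut replicate 2. In IDH1wt against CTL 0 passed with limma or the unmoderated test, and 2 had an unadjusted p under 0.05.

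**Figure D5:**
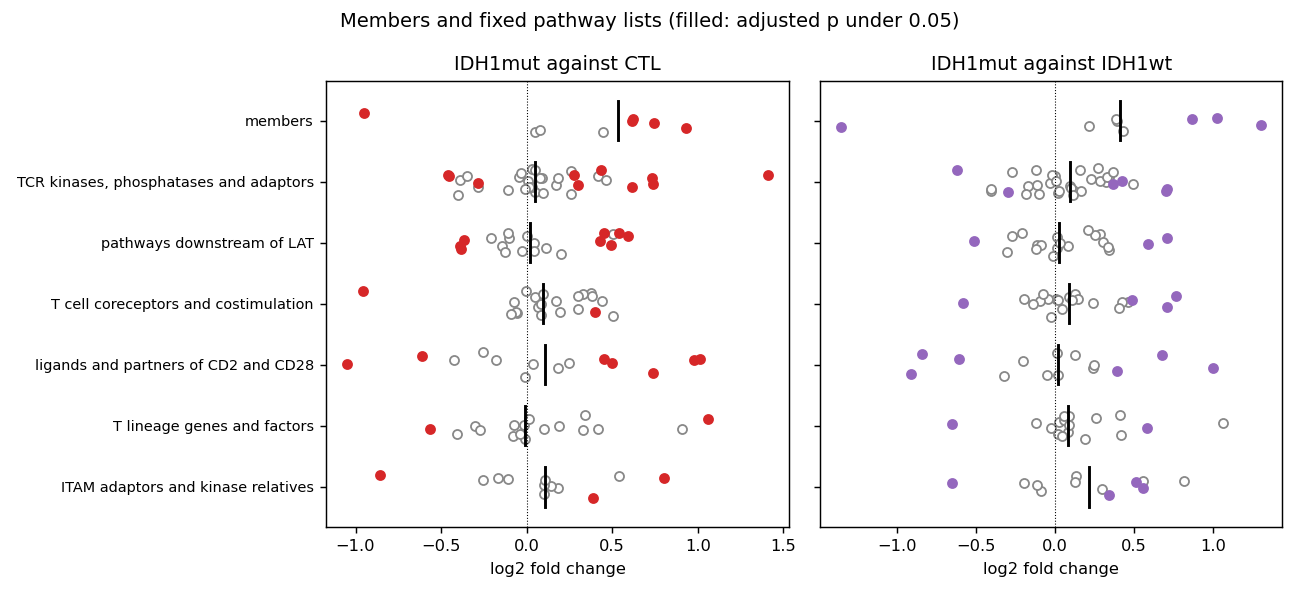
Log2 fold change of the members and of the measured genes of 6 pathway lists in IDH1mut against CTL (left) and IDH1mut against IDH1wt (right). Each point is a gene, filled where its adjusted p is under 0.05, and the bar is the list's median. List medians lie between -0.01 and 0.11 on the left and between 0.02 and 0.21 on the right, with points on both sides of 0.

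Genes of the T cell coreceptors and of the T lineage were described in the same way. Of 21 coreceptor and costimulation genes 1 rose and 1 fell in IDH1mut against CTL, 9.52% beside the 20.7% of all genes. Cd27, a TNF receptor family member, fell by 0.96 ± 0.15 on the log2 scale (adjusted p = 0.00114), and Cd5, a receptor that tempers T cell receptor signals, rose 0.40 ± 0.12 (adjusted p = 0.0329). The call of Cd5 was lost without CTL replicate 1 or 3 or IDH1mut replicate 2 or 3 (adjusted p from 0.0693 to 0.141), and the list's 2 calls were 1 without CTL replicate 3. Against IDH1wt 3 rose and 1 fell, 19.0% beside 13.3% of all genes. Tnfrsf18 (0.71 ± 0.12), Sh2d1a (0.77 ± 0.19) and Cd5 (0.49 ± 0.12) were higher, and Cd27 was lower (-0.58 ± 0.15). Of these calls that of Tnfrsf18 alone held without any single array. Those of Sh2d1a and Cd5 were lost without IDH1wt replicate 2 or 3 or IDH1mut replicate 2 (adjusted p from 0.061 to 0.0722), that of Cd5 also without IDH1mut replicate 3. Cd27 missed without IDH1wt replicate 1 or 3 or IDH1mut replicate 1 or 3 (adjusted p from 0.0671 to 0.0855), and the list's 4 calls were 1 without IDH1wt replicate 3 and 2 without IDH1mut replicate 3. Of 27 T lineage genes and factors 17 were measured. Tcf7 and every entry for a receptor chain other than Ptcra had no probe set with that single symbol. The share that passed was 11.8% in IDH1mut against CTL and 11.8% against IDH1wt, beside 20.7% and 13.3% of all genes. In IDH1mut against CTL and against IDH1wt alike, Satb1, a chromatin organiser, rose (1.06 ± 0.15 and 0.58 ± 0.15) and Runx3 fell (-0.57 ± 0.10 and -0.65 ± 0.10). Satb1 against IDH1wt lost its call without IDH1wt replicate 1 or 3 or IDH1mut replicate 1 or 2 (adjusted p from 0.0595 to 0.0845). For IDH1wt against CTL 0 genes of these 2 lists passed with limma or the unmoderated test, and 4 and 2 had an unadjusted p under 0.05.

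Markers of T cells were set beside the members because the sort could hold such cells. Of 18 T cell markers 12 were measured, and 3 of them are members. Tcf7 and the entries for the receptor chains (Trac, Trbc1, Trbc2, Tcra and Tcrb) had no probe set with that single symbol, so the receptor chains were not read. Cd4, Cd8b1, Cd5, Cd6, Bcl11b and Themis lay below the array median on all 9 arrays. The mean log2 level of the 9 markers that are not members ran from 3.98 to 4.35 on CTL arrays, 4.11 to 4.18 on IDH1wt arrays and 4.19 to 4.36 on IDH1mut arrays, ranges that overlap between CTL and IDH1mut and not between the IDH1 groups. Of these 9, Cd5 alone passed in IDH1mut against CTL. Cd4 was at 0.05 ± 0.13 (adjusted p = 0.844) and Cd8a at -0.07 ± 0.16 (adjusted p = 0.808). Thy1, above the array median on all 9 arrays, was at 0.38 ± 0.21 (adjusted p = 0.244) and Cd6 at 0.33 ± 0.11 (adjusted p = 0.0556). For Cd5, Thy1 and Cd6 all IDH1mut arrays lay above all CTL arrays, where 37.8% of all genes did not overlap. Cd8b1 was at 0.38 ± 0.24, Lef1 at -0.30 ± 0.20, Bcl11b at -0.08 ± 0.18 and Themis at -0.11 ± 0.14 (adjusted p from 0.325 to 0.818). Of 12 measured NK cell markers, a type that also holds Cd247, 0 passed in any comparison with limma or the unmoderated test, and 1, 2 and 3 had an unadjusted p under 0.05 in IDH1mut against CTL, in IDH1wt against CTL and between the IDH1 groups. Their mean level was 4.16 to 4.22 in CTL, 3.98 to 4.21 in IDH1wt and 4.26 to 4.36 in IDH1mut, highest in the last. With a single array left out, 1 NK marker passed in IDH1mut against CTL without IDH1wt replicate 2 or IDH1mut replicate 1, and against IDH1wt 1 passed without IDH1wt replicate 2 and 2 without IDH1wt replicate 3. Of the 12 markers 8, Ncr1 among them, lay below the median on every array.

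Markers of other cell types were read in the same way, and their part in the members' changes was not tested. In IDH1mut against CTL 4 of 5 erythroid markers rose (2 in the unmoderated test, and 3 without any 1 of the CTL or IDH1mut arrays). Their mean level was 6.19 to 6.36 in CTL, 5.91 to 7.25 in IDH1wt and 7.30 to 7.50 in IDH1mut. In IDH1mut against IDH1wt 0 of the 5 passed with limma or the unmoderated test, all 5 had an unadjusted p under 0.05, and 4 passed without IDH1wt replicate 2. Of 10 neutrophil and myeloid progenitor markers, all above the median on every array, 3 rose and 4 fell in IDH1mut against CTL and likewise against IDH1wt. Of 6 stem and progenitor markers 4 rose and 1 fell against CTL, and 4 rose and 0 fell against IDH1wt. The shares of the erythroid, neutrophil and stem lists were 80%, 70% and 83.3% against CTL, beside 20.7% of all genes. Those of the neutrophil and stem lists against IDH1wt were 70% and 66.7%, beside 13.3%.

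Of 7 mast cell and basophil markers, a lineage that holds Lat, 1 rose and 2 fell in IDH1mut against CTL, with mean levels of 7.86 to 8.45 against 8.57 to 8.72. Against IDH1wt 0 rose and 2 fell, with 0 calls without IDH1wt replicate 3 and 1 without IDH1wt replicate 2 or IDH1mut replicate 1 or 2. Of 6 megakaryocyte and platelet markers, the other lineage that holds Lat, 1 rose and 1 fell in each of these comparisons. The unmoderated test called 0 of them against CTL and 1 against IDH1wt. Their 2 calls against CTL were 1 without CTL replicate 1 or 3, and those against IDH1wt were 1 without CTL replicate 1 or 3, IDH1wt replicate 1 or 3 or any 1 of the IDH1mut arrays. Of 9 B cell markers 2 rose and 0 fell against CTL, Vpreb1 (1.64) and Igll1 (1.46), 22.2% and near the 20.7% of all genes. Both of these calls were lost without IDH1mut replicate 3 and without replicate 1 or 3 of CTL (adjusted p up to 0.0739 and 0.068) and in the unmoderated test. Both rose against IDH1wt (2.53 and 2.24), also without any single array. Of 6 plasmacytoid dendritic cell markers 1 rose and 2 fell against CTL, and 0 rose and 2 fell against IDH1wt. The shares of the mast cell, megakaryocyte and plasmacytoid lists were 42.9%, 33.3% and 50% against CTL, beside 20.7% of all genes. Against IDH1wt they were 28.6%, 33.3% and 33.3%, beside 13.3%, and that of the B cell list was 22.2%. In IDH1wt against CTL 0 markers of these lists passed with limma or the unmoderated test, and 0 to 3 per list had an unadjusted p under 0.05. Without IDH1wt replicate 1, 3 erythroid markers and 1 mast cell marker passed there. Ptprc, a general leukocyte gene named here outside the rule for named genes, lay above the median on all arrays.

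The genes whose levels followed each changed member most closely were found by Pearson's r over the 9 arrays, among 1710 genes with a range over 1 log2 unit. All points share 3 groups and 1 normalisation, so r describes these arrays. For Cd247 they were Gimap4 (r = 0.981), Slk (0.978) and Klhl41 (0.975). For Cd3g they were Gimap7 (0.98), Tmem216 (0.952) and Rims1 (0.945), and for Cd3d Gimap7 (0.935), Atg16l2 (0.929) and Tnfrsf18 (0.925). Gimap4 and Gimap7 encode GTPases known from lymphocytes. After group means were removed, the values in the same order of genes were 0.865, 0.904 and 0.919 for Cd247. They were 0.922, 0.85 and 0.822 for Cd3g and 0.722, 0.808 and 0.865 for Cd3d. High values were thus not particular to the Gimap genes. For Cd28 the genes most alike were Bex6 (0.975), Pecam1 (0.975) and Uck2 (0.964), and for Lat Fmo5 (0.977), F2r (0.959) and Aldh2 (0.955). Cd28 itself was anticorrelated with Cd3g (-0.83), Cd247 (-0.826) and Cd3d (-0.822). Once group means were removed these values were -0.05, 0.54 and 0.02. The r of Cd28 with Cd2, Zap70, Lat and Cd3e was -0.686, -0.745, -0.731 and -0.635. After removal of group means it stayed negative with all of these, at -0.712, -0.599, -0.443 and -0.316.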

How the data were processed

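Expression was measured in 9 sorted bone marrow samples, 3 per group, on 1 array each. The deposited values are log2 expression per probe set, made by the authors with RMA per the submitters' processing notes, with no version given. Other steps are not given in the sources used here. The table held 20877 probe sets. The platform annotation names a single gene for 17815 of them. The 244 with several symbols and the 2818 without one were not used, which left 17731 genes.

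limma 3.58.1 in R 4.3.3 fitted a mean per group on all 9 arrays, with two-sided moderated contrasts and Benjamini-Hochberg adjustment per contrast. The procedure was tested on simulated data. Genes named were all members, up to 4 passing genes of largest change per pathway list and comparison, the 3 genes most like each changed member, and marker genes. Outside this rule, the genes around the Cd3 cluster were chosen by position, those named among them, Cd48 and Ptprc after their values were seen. The members and lists were chosen with earlier results of these data known. Promoters came from RefSeq tables (GRCm38.p6). The alternatives were another probe set summary, filter, normalisation (2 kinds), spread model, array weights, replicate block, unmoderated test, the 6 compared arrays alone, and leaving out each array. Precision is limited by the number of arrays.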

Additional observations from a re-analysis of the deposited data

How the results depend on the processing

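Members past the threshold in IDH1mut against CTL numbered 5, with 3 in the unmoderated test and 3 to 6 when single arrays were left out (3 without CTL replicate 2, IDH1mut replicate 2 or IDH1mut replicate 3). In IDH1mut against IDH1wt they numbered 4, with 2 in the unmoderated test and 4 to 5 when single arrays were left out. They were 5 among brighter genes, after renewed quantile normalisation, and with the 6 compared arrays alone, array weights or the replicate block. With an intensity trend and robust variances they were 6. In IDH1wt against CTL they were 0 under every alternative run. Genes of small difference changed sign on leaving out single arrays: Cd3e (-0.044 to 0.14) and Zap70 (-0.061 to 0.17) in IDH1mut against CTL, and Cd2 in IDH1wt against CTL (-0.10 to 0.15), none of them past the threshold there. Counts over all genes ran from 2370 to 3805 (IDH1mut against CTL), 132 to 570 (IDH1wt against CTL) and 1475 to 2193 (IDH1mut against IDH1wt) without single arrays. They moved by over 1.5 times without CTL replicate 1 in the first, CTL replicate 1 or 3 or IDH1wt replicate 2 or 3 in the second and IDH1wt replicate 3 or IDH1mut replicate 2 in the third. In IDH1wt against CTL they were 717 with an intensity trend and robust variances, 1226 with array weights and 58 in the unmoderated test. The cause of these moves was not tested. Cd247 and Cd2 lay outside the brighter genes, so that alternative has no value for them.

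No pairing by replicate number was seen: deviations of same-numbered arrays correlated between -0.09 and 0.03, and those of differently numbered arrays between -0.08 and 0.08. This check cannot tell whether same-numbered arrays shared a source. With the replicate block 5, 0 and 5 members passed in IDH1mut against CTL, in IDH1wt against CTL and between the IDH1 groups, of 3383, 314 and 2035 genes in all. Zap70 was the added member, and the block changed no other call of a member. Precision is limited by 3 arrays per group, and signal near the low end, as for Cd247 and Cd2, compresses differences.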
